A study of Sus scrofa with 9 samples.

Results

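The proteasome genes of the Ningxiang pig spleen were followed over 3 ages. They were the loci of the deposited gene table whose description names a proteasome subunit, a 26S protease regulatory subunit, the 26S proteasome, a proteasome activator complex or a proteasome assembly chaperone, which gave 45 of 28095 loci. Spleens of this indigenous Chinese breed were taken at postnatal days 30, 90 and 210, and 3 RNA libraries were made at each age. The labels name no treatment, mutation or sex that separates the groups, and they do not say that the 3 libraries of an age came from separate animals, so p-values measure the spread between these libraries, which may be technical.

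The proteasome degrades proteins that carry ubiquitin chains. Its 20S core is a stack of rings of alpha and beta subunits, with the proteolytic sites on beta types 5, 6 and 7, and the 19S regulatory particle, built of ATPase and non-ATPase subunits, recognises, unfolds and feeds in the substrate. In cells exposed to interferon gamma, and constitutively in many immune cells, beta types 8, 9 and 10 (genes PSMB8, PSMB9 and PSMB10) take the places of beta types 5, 6 and 7 (PSMB5, PSMB6 and PSMB7). The resulting immunoproteasome produces many of the peptides that TAP1 and TAP2 carry into the endoplasmic reticulum for display on MHC class I molecules. These roles are known mainly from human and mouse cells.

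The 45 loci held 6 alpha subunits of the core (PSMA1 to PSMA6), 4 structural beta subunits (PSMB1 to PSMB4), the 3 constitutive catalytic and 3 immunoproteasome beta subunits, 5 ATPases (PSMC2 to PSMC6), 11 non-ATPase subunits of the regulatory particle, 2 chaperones of that particle (PSMD5 and PSMD9), 4 activator subunits (PSME1 to PSME4), 4 chaperones of the core (PSMG1 to PSMG4) and 3 short loci. Alpha type-7 was not analysed here. Total counts over loci were 48.9 to 62.1 M reads per library. The labelled tissue was checked against spleen genes: TCF21 and NKX2-5, transcription factors of spleen mesenchyme, averaged 32.0 and 8.17 FPKM (reads scaled by locus length and library size, the per-length level) over the 9 libraries. The adipocyte hormone ADIPOQ averaged 0.0081 FPKM, and all 4 adipocyte marker loci were below 1 FPKM, which matters because the labels' extraction protocol mentions adipose tissue.

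Of the 45 loci 43 had a mean of at least 1 FPKM and were tested. The 3 short loci carried few reads. A locus described as 26S proteasome regulatory subunit 4-like had counts of 0, 1 and 1 at day 30, then 8, 8 and 6 at day 90, then 5, 5 and 2 at day 210, and was not tested. A locus described as 26S protease regulatory subunit 7 had 7 and 3 counts in day 30 replicates 1 and 2 and 0 in the other libraries, and was not tested. A second locus described as SEM1, a small subunit of the regulatory particle, passed the filter with 16 to 74 counts per library, against 271 to 682 for the main SEM1 locus. Its log2 changes, the lowest of the family in both comparisons with day 30, were -0.54 ± 0.53 for day 90 over day 30 and -0.91 ± 0.54 for day 210 over day 30 (SE, edgeR adjusted p = 0.602 and 0.347). The loci PSMA4 and PSMB10 each merge the proteasome gene with another one in the authors' assembly (hydroxylysine kinase for PSMA4, the chymotrypsin-like protease CTRL-1 for PSMB10), so their values are uncertain.

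Proteasome transcripts were abundant in the spleen at every age. The median of the 43 loci was 13.4 FPKM (mean of the 9 libraries), against 2.87 FPKM over all 19264 loci tested, and 41 of the 43 lay above that median. PSMB8, the immunoproteasome counterpart of PSMB5, had the highest FPKM of the family at 64.8, which put it at position 270 of the 19264 loci. PSME2 and PSME1, the 2 subunits of the PA28 activator that opens the core for short peptides, had 46.8 and 36.8 FPKM. Between them stood PSMA6, a subunit of the alpha ring, with 37.5 FPKM, and PSMB2, a structural beta subunit, came next in the family with 32.0 FPKM.

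FPKM levels compare genes only as well as the assembled locus length allows. The counts and FPKM together give the PSMB9, PSMB7 and PSMB10 loci 6.43, 8.03 and 10.2 times the length of the PSMB8 locus, and their FPKM of 6.47, 5.57 and 6.16 are low beside counts of the same order as those of PSMB8 (on average 2596, 2791 and 3939 counts per library, against 4046 for PSMB8). The lengths given to PSMB8, PSMB5 and PSMB6 were close to each other (0.99 and 0.87 times PSMB8 for PSMB5 and PSMB6), so that these 3 can be set side by side. PSMB8 then stood at 64.8 FPKM, PSMB6 at 20.9 FPKM and PSMB5 at 12.8 FPKM over the 9 libraries. Within a gene, libraries are compared below by counts scaled to library size with TMM factors, called normalised CPM.

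None of the 43 loci passed an adjusted p of 0.05 in edgeR's quasi-likelihood test in any comparison of ages. Of all loci tested 6.08% passed for day 90 over day 30, 0.535% for day 210 over day 90, 6.24% for day 210 over day 30 and 7.64% in the test over all 3 ages. At an unadjusted p under 0.05 the counts of proteasome loci were 3, 5 and 9 of 43 in the 3 pairwise comparisons, against 23.1%, 14.1% and 23.7% of all loci, and 5 over all 3 ages, against 26%. DESeq2, run as an alternative, called no proteasome locus for day 90 over day 30 (12.6% of all loci), PSMB9 for day 210 over day 90 (4.17% of all loci), PSME1 for day 210 over day 30 (12% of all loci), and PSMB9 over all 3 ages (17.3% of all loci). A p that misses the threshold does not show that levels were equal: the standard errors of the log2 changes ran from 0.09 to 0.55.

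The log2 changes were small and mostly negative with age. For day 90 over day 30 they ranged from -0.54 to 0.35, with a median of -0.11, and 33 of 43 were below 0. Between days 90 and 210 (day 210 over day 90) they ranged from -0.57 to 0.13, with a median of -0.17, and 36 of 43 were below 0. For day 210 over day 30 they ranged from -0.91 to 0.08, with a median of -0.25, and 42 of 43 were below 0, PSMA3 being the exception. Single libraries moved these medians: that for day 90 over day 30 was -0.055 without day 30 replicate 2 and -0.19 without day 30 replicate 3, and that for day 210 over day 90 was -0.31 without day 210 replicate 1 and -0.10 without day 210 replicate 2. With only loci averaging 5 FPKM or more, the median for day 90 over day 30 was -0.051, and 24 of 39 were below 0. For day 210 over day 30 that filter gave a median of -0.15 and a highest value of 0.18, with 34 of 39 below 0. Of all loci under that filter 50.4% and 49.5% were below 0 in these 2 comparisons. Without day 210 replicate 3, 38 of 43 proteasome loci were below 0 for day 210 over day 30. Over all loci tested each of the 3 medians was 0.00, and 49.6%, 50.0% and 49.4% of the changes were below 0. The day 30 libraries enter both comparisons against day 30, and the 43 loci share the 9 libraries, so these counts are no independent evidence for one another. In whole spleen, fewer cells of a type and less RNA per cell cannot be told apart.

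**Figure D1:**
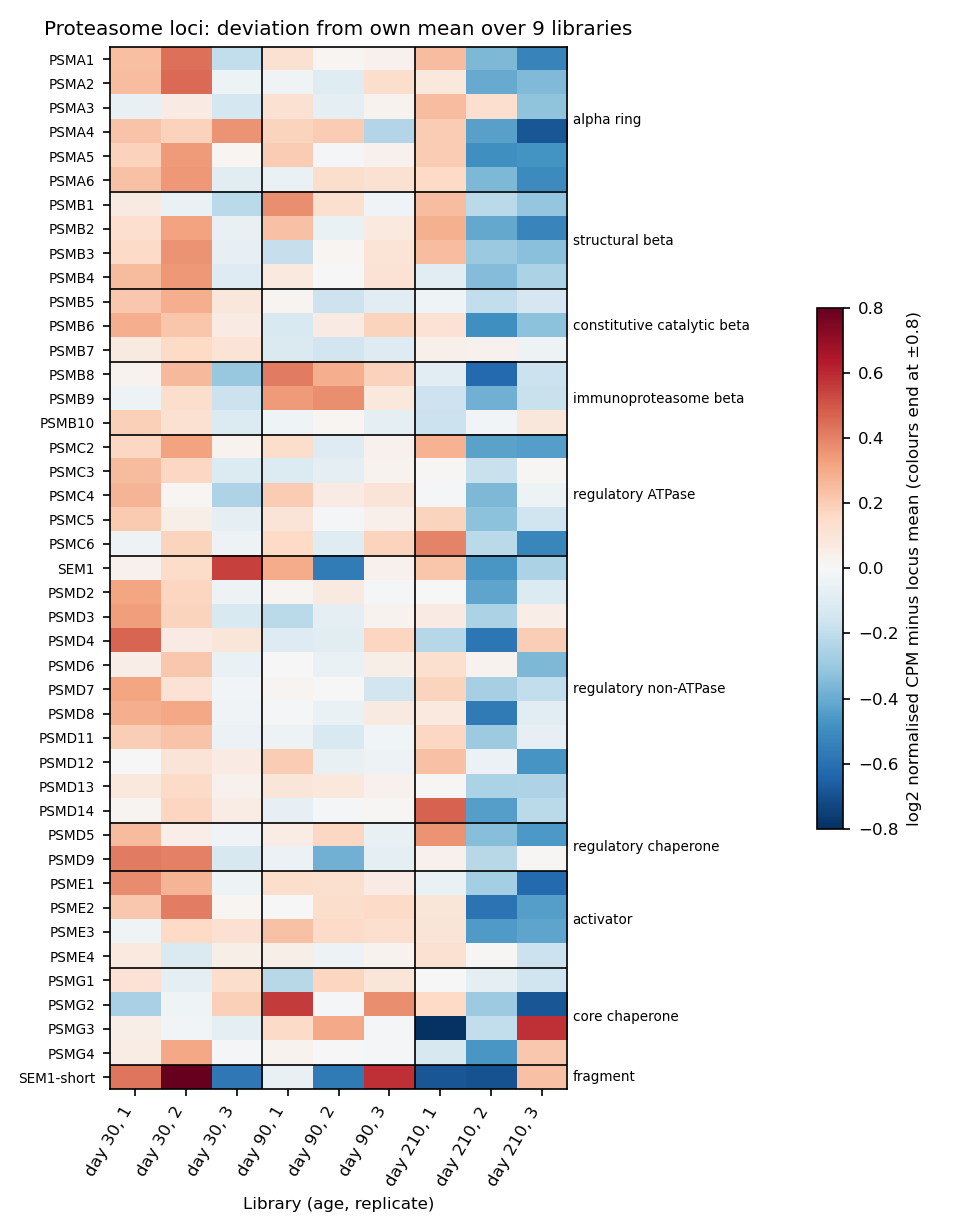
Deviation of each tested proteasome locus (rows, grouped by role) from its own mean over the 9 libraries (columns), in log2 normalised CPM. Day 210 replicates 2 and 3 are below the mean for 39 and 35 of the 43 loci, while day 210 replicate 1 is above it for 32. PSMB8 and PSMB9 have their highest age mean at day 90, though day 30 replicate 2 is above day 90 replicate 3 for both.

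Of the 3 immunoproteasome subunits, PSMB8 had 71.7, 84.2 and 57.0 normalised CPM at day 30, then 93.9, 86.2 and 80.1 at day 90, then 66.5, 45.8 and 62.5 at day 210. Every day 210 library was thus below every day 90 library, and 1 of the 3 day 30 libraries reached into the day 90 range. The log2 change was -0.57 ± 0.18 (SE) for day 210 over day 90 (edgeR adjusted p = 0.196) and 0.29 ± 0.18 for day 90 over day 30 (adjusted p = 0.376).

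PSMB9, the counterpart of PSMB6, had 44.3, 50.3 and 40.5 normalised CPM at day 30, then 57.8, 59.1 and 48.4 at day 90, then 40.7, 34.9 and 40.4 at day 210. The day 210 libraries again lay below all day 90 libraries, while day 30 and day 90 overlapped. The log2 change of PSMB9 was -0.51 ± 0.13 (SE) for day 210 over day 90 (edgeR adjusted p = 0.127) and 0.29 ± 0.13 for day 90 over day 30 (adjusted p = 0.215). Over all 3 ages PSMB9 had the lowest adjusted p of the family (0.080 in edgeR). DESeq2 placed it past the threshold, at an adjusted p of 0.0276 over all ages and 0.0296 for day 210 over day 90.

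PSMB10, the counterpart of PSMB7, did not share this profile. The merged PSMB10 locus had 80.1, 76.5 and 65.3 normalised CPM at day 30, then 68.5, 71.1 and 66.4 at day 90, then 62.3, 69.2 and 74.9 at day 210. The 3 ages overlapped, and the log2 changes were -0.11 ± 0.12 for day 90 over day 30 and 0.00 ± 0.12 for day 210 over day 90 (SE, edgeR adjusted p = 0.630 and 0.997).

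Of the constitutive catalytic subunits, PSMB5 carries the chymotrypsin-like site, PSMB6 the caspase-like site and PSMB7 the trypsin-like site. PSMB5 had 16.2, 17.1 and 14.8 normalised CPM at day 30, then 14.1, 12.4 and 13.1 at day 90, then 13.6, 12.2 and 12.7 at day 210. All 6 later libraries were below the 3 day 30 libraries. Its log2 change was -0.28 ± 0.11 for day 90 over day 30 and -0.32 ± 0.11 for day 210 over day 30 (SE, edgeR adjusted p = 0.174 and 0.122).

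PSMB7 had 52.2, 55.4 and 53.4 normalised CPM at day 30, then 45.8, 44.6 and 46.2 at day 90, then 51.0, 50.7 and 48.2 at day 210. Day 90 lay below both other ages without overlap, opposite to PSMB8 and PSMB9. The log2 change was -0.24 ± 0.09 for day 90 over day 30 (SE, edgeR adjusted p = 0.149) and 0.13 ± 0.09 for day 210 over day 90 (adjusted p = 0.565). PSMB6 had 24.4, 23.2 and 20.9 normalised CPM at day 30, then 18.3, 20.8 and 22.5 at day 90, then 21.6, 14.2 and 15.9 at day 210. Day 210 replicate 1 of PSMB6 lay within the range of the younger spleens, and replicates 2 and 3 were the lowest libraries of all 9.

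**Figure D2:**
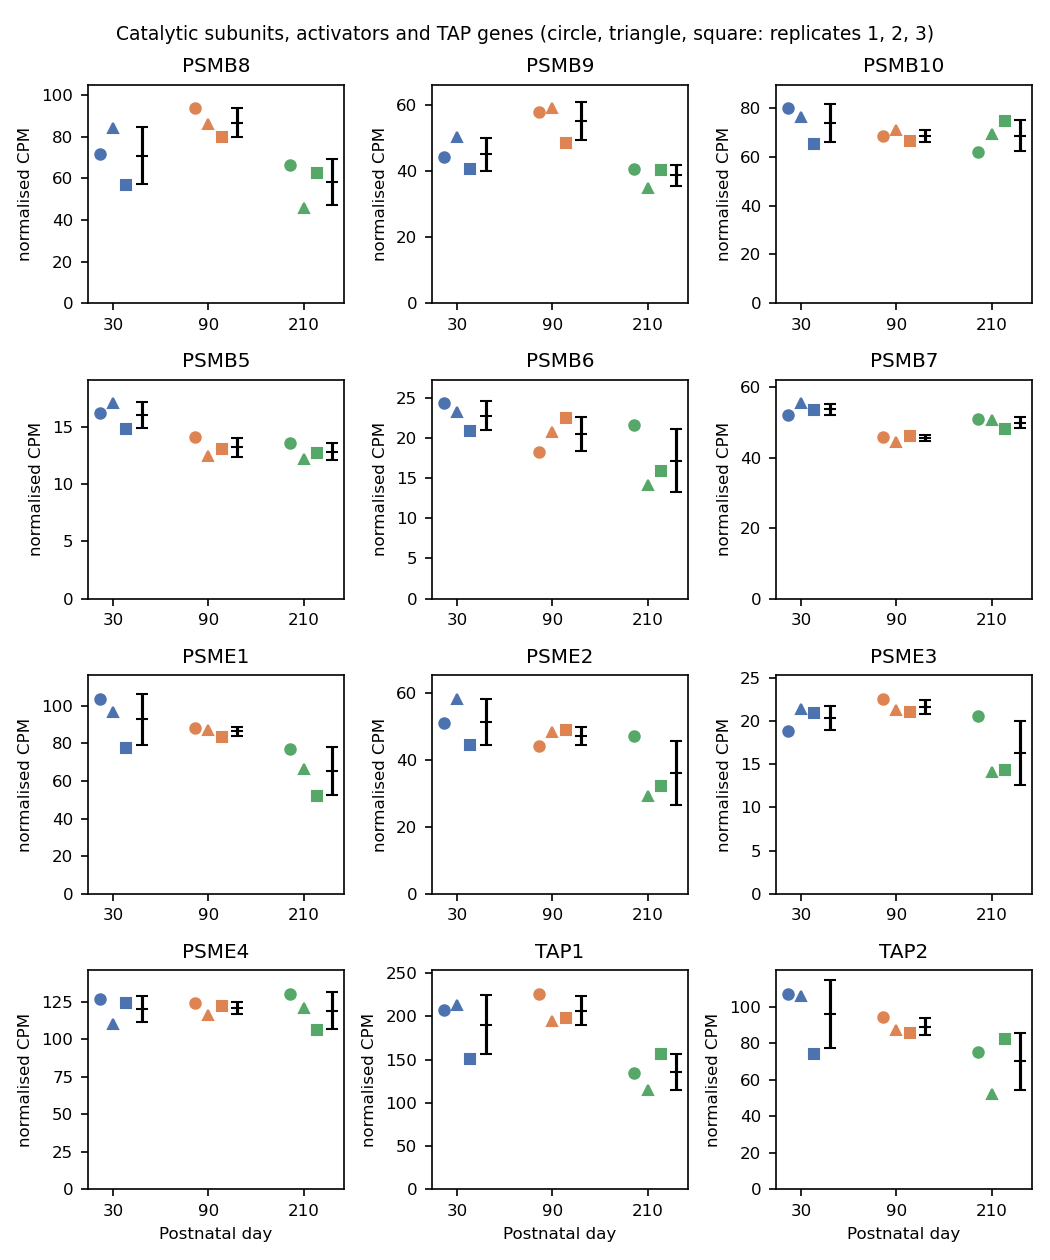
Normalised CPM (vertical axes from 0) of the catalytic beta subunits, the activator subunits and TAP1 and TAP2 by postnatal day. Each symbol is 1 library (circle, triangle and square for replicates 1, 2 and 3), and the bar beside it gives the mean ± SD of the 3. PSMB8, PSMB9, PSME1, PSME3 and TAP1 at day 210 lie below all of their day 90 libraries, PSME3 by a small margin in replicate 1. PSME2 and PSME3 have their lowest values in day 210 replicates 2 and 3.

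The ratio of each immunoproteasome subunit to the subunit it replaces was taken within each library, where the library's scale cancels. For PSMB8 to PSMB5 the log2 ratio of FPKM was 2.14, 2.30 and 1.94 at day 30, then 2.73, 2.79 and 2.61 at day 90, then 2.28, 1.91 and 2.30 at day 210. As counts these are 4.43, 4.94 and 3.85 PSMB8 reads per PSMB5 read at day 30, then 6.65, 6.93 and 6.13 at day 90, then 4.88, 3.76 and 4.94 at day 210. The day 90 libraries stood above all 6 others. The mean log2 ratio was 2.71 ± 0.09 at day 90 and 2.13 ± 0.18 at day 30 (SD, n = 3 each), a difference of 0.58, and it was 2.16 ± 0.22 at day 210, 0.55 below day 90.

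An exact permutation test of the PSMB8 to PSMB5 ratio over the 1680 assignments of the libraries to the 3 ages, two-sided, gave p = 0.0357. Adjusted over the 3 ratios tested, it was 0.107, so the difference did not pass the correction. The smallest p this test can give is 0.00357. Comparisons of 3 against 3 libraries cannot go below 0.1, which is the exact permutation p of day 90 against each of the other ages. The unadjusted p was also above 0.05 without day 90 replicate 1 or without day 90 replicate 2 (0.0571 in both exact tests).

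For PSMB9 to PSMB6 the log2 ratio of FPKM was -2.02, -1.77 and -1.93 at day 30, then -1.22, -1.38 and -1.78 at day 90, then -1.97, -1.58 and -1.54 at day 210. The negative sign reflects the long PSMB9 locus: as counts there were 1.82 to 2.16 PSMB9 reads per PSMB6 read at day 30, 2.15 to 3.15 at day 90 and 1.89 to 2.54 at day 210. Replicates 1 and 2 of day 90 were the highest libraries, and replicate 3 was within the range of the other ages (exact permutation p = 0.132, 0.198 adjusted over the 3 ratios). For PSMB10 to PSMB7 the mean log2 ratio of FPKM was 0.11 ± 0.17 at day 30, 0.24 ± 0.07 at day 90 and 0.11 ± 0.17 at day 210 (SD, n = 3 each), with overlapping libraries (exact permutation p = 0.450).

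**Figure D3:**
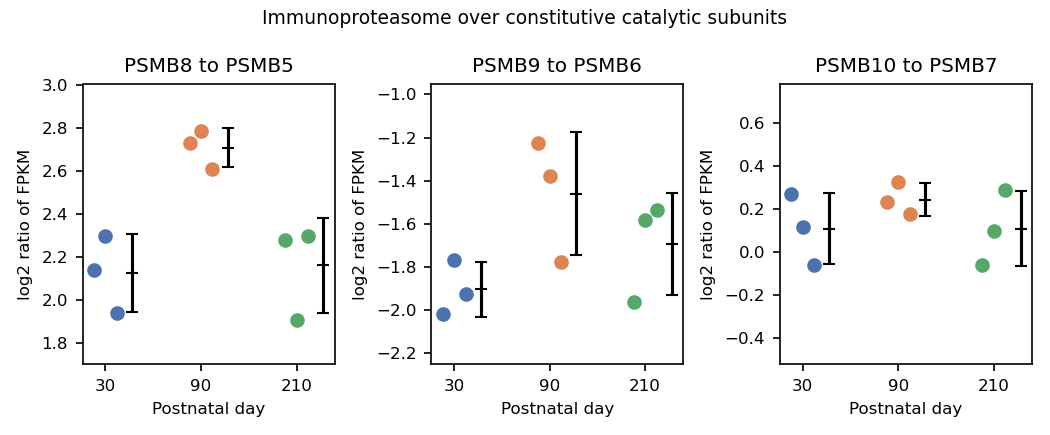
Log2 ratio of FPKM of each immunoproteasome subunit to the constitutive subunit it replaces, by postnatal day, for the 9 libraries. Points are libraries in the order of replicates 1, 2 and 3, bars are mean ± SD of 3, and each panel spans 1.3 log2 units; the 3 day 90 points lie above the rest only for PSMB8 to PSMB5.

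PSMB8 and PSMB9 lie in the MHC region beside the peptide transporter genes, and the 4 loci were read together. On chromosome 7 the table lists PSMB9 (MSTRG.11215) at 126693260 to 126702891 on the minus strand, TAP1 at 126702048 to 126711942, PSMB8 (MSTRG.11208) at 126712906 to 126715734 and TAP2 at 126717551 to 126731156, these 3 on the plus strand. The submitters' processing notes name mm8, a mouse build, while the table holds pig loci, so the assembly of these coordinates is uncertain. PSMB9 and TAP1 overlap by 844 bases on opposite strands, and whether the counting used strand is not given in the sources used here, so reads of the overlap cannot be assigned to one of them.

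TAP1 had 208, 213 and 151 normalised CPM at day 30, then 226, 195 and 198 at day 90, then 134, 115 and 157 at day 210. Its log2 change of -0.61 ± 0.16 (SE) for day 210 over day 90 (edgeR adjusted p = 0.145) was of the size seen for PSMB8 and PSMB9, and all day 210 libraries were below the day 90 libraries. TAP2 changed by -0.35 ± 0.19 in the same comparison (SE, edgeR adjusted p = 0.470). An abundant locus described as the class I heavy chain SLA-3, shared with other SLA descriptions and therefore uncertain, had 1196, 1088 and 720.3 normalised CPM at day 30, then 1364, 1299 and 1254 at day 90, then 756, 670.3 and 704 at day 210, a log2 change of -0.88 ± 0.19 for day 210 over day 90 (SE, edgeR adjusted p = 0.079).

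Of the 15 loci of the class I presentation list none passed the test in any comparison, and their median log2 changes were -0.02 for day 90 over day 30, -0.20 for day 210 over day 90 and -0.14 for day 210 over day 30. DESeq2 called TAP1 and SLA-3 for day 210 over day 90 (adjusted p = 0.0293 and 0.000346). EdgeR also called SLA-3 in that comparison without day 30 replicate 3 and in a fit of the 2 ages alone (adjusted p = 0.0270 and 0.0418). A second, less abundant SLA-3 locus was called as lower for day 90 over day 30 by DESeq2, by limma on FPKM, and by edgeR without day 90 replicate 1 (adjusted p = 0.0288 by DESeq2 and 0.0212 by edgeR). Without day 30 replicate 3, edgeR called TAP1 and SLA-3 for day 210 over day 30 (adjusted p = 0.0454 and 0.0247). NLRC5, the transactivator of class I genes, changed by 0.33 ± 0.14 for day 90 over day 30 and -0.22 ± 0.14 for day 210 over day 90 (SE, edgeR adjusted p = 0.197 and 0.554).

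Markers of several immune cell types differed between ages, only in part as PSMB8 and PSMB9 did. Of 9 B cell symbols 7 were matched, none of them at 0 in all libraries, and 5 of the 7 rose for day 90 over day 30, where 2.06% of all loci rose. That count was 2 without day 30 replicate 1 or without any 1 of the day 90 libraries, and 3 without day 30 replicate 2. The summed level of the B cell markers was 649 to 785 normalised CPM at day 30, 943 to 1138 at day 90 and 652 to 785 at day 210. For day 210 over day 90, 1 of the 7 fell, where 0.187% of all loci fell. At least 1 B cell locus was called in that comparison with any library left out.

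T cell markers (9 of 10 symbols matched) summed to 436 to 501 normalised CPM at day 30, 566 to 643 at day 90 and 559 to 767 at day 210. Cytotoxic and NK markers (9 of 10 matched) summed to 125 to 167 normalised CPM at day 30, 185 to 199.6 at day 90 and 160 to 200 at day 210. In both lists day 210 overlapped day 90, and no marker passed edgeR's test for day 90 over day 30. Dendritic cell markers (8 of 9 matched) summed to 139 to 156 normalised CPM at day 30, 128 to 156 at day 90 and 85.2 to 97.1 at day 210. For day 210 over day 90, 1 of the 8 fell, where 0.187% of all loci fell. Plasma cell markers summed to 307 to 391 normalised CPM at day 30, 618 to 1128 at day 90 and 796 to 889 at day 210. Of the 5 plasma cell loci 4 rose for day 90 over day 30, where 2.06% of all loci rose. The number called there was 1 without day 30 replicate 1 and 2 without day 30 replicate 2. None of these markers was at 0 in all libraries, and the part of these cells in the PSMB8 and PSMB9 values was not tested.

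Interferon-related genes were compared with the interferon-inducible subunits. IFNG itself was below the filter at a mean of 0.42 FPKM. Among the 16 tested loci of the interferon gamma list 1 passed the test, for day 90 over day 30, where 6.08% of all loci passed. The count of the list is thus close to its background. The locus was IFNGR2, a receptor chain, with a log2 change of 1.01 ± 0.19 (SE, edgeR adjusted p = 0.0209). It rose in all 3 day 90 libraries (131 to 145 normalised CPM, against 60.9 to 80.3 at day 30). That call was lost in 5 of the 9 fits that leave out a library, and its adjusted p reached 0.0767 when day 30 replicate 2 was left out.

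The interferon-stimulated antiviral genes differed from PSMB8 and PSMB9 in direction for day 90 over day 30. Neither subunit passed edgeR's test in any comparison. Of the 17 tested loci of the antiviral list 12 fell for day 210 over day 30, where 3.7% of all loci fell. Among them were ISG15 with a log2 change of -3.71 and IFI44 with -2.51 (edgeR adjusted p = 0.0237 and 0.0312), and the list's median was -2.07. In the same comparison PSMB8 and PSMB9 changed by -0.28 ± 0.18 and -0.22 ± 0.13 (SE, edgeR adjusted p = 0.369 and 0.338). For day 90 over day 30 the list's median was -1.27 with none past the test, where PSMB8 and PSMB9 both had positive values. For day 210 over day 90 the list's median was -0.81, and PSMB8 and PSMB9 were lower too (-0.57 and -0.51). The 12 calls depended on single libraries: none remained without day 30 replicate 1, without day 30 replicate 2, or without any 1 of the day 210 libraries. Without day 30 replicate 3, 16 were made, where 5.47% of all loci passed. In day 30 replicate 3 the summed level of the list was 1011 normalised CPM, against 3818 and 4092 normalised CPM in the other day 30 libraries. Leaving it out gave 14 calls for day 90 over day 30, where 5.61% of all loci passed. PSMB8 and PSMB9 were also at their lowest of day 30 in that library (57.0 and 40.5 normalised CPM). Without it their log2 changes for day 90 over day 30 were 0.15 and 0.22, against 0.29 for both with all libraries. A link between the list and the subunits was not tested.

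None of the activators passed edgeR's test with all 9 libraries. PSME1 (MSTRG.10643) had 104, 96.6 and 77.7 normalised CPM at day 30, then 88.4, 87.3 and 83.7 at day 90, then 77.3, 66.4 and 52.1 at day 210. All day 210 libraries were below all younger ones, by a small margin in replicate 1. The log2 change of PSME1 was -0.51 ± 0.16 (SE) for day 210 over day 30 (edgeR adjusted p = 0.096), and DESeq2 called it (adjusted p = 0.0432).

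PSME2 (MSTRG.10647), its partner in PA28 and its neighbour on chromosome 7, had 51.1, 58.3 and 44.4 normalised CPM at day 30, then 44, 48.4 and 48.9 at day 90, then 47.0, 29.1 and 32.3 at day 210. PSME3, the subunit of a nuclear activator, had 18.8, 21.4 and 20.9 normalised CPM at day 30, then 22.6, 21.3 and 21.1 at day 90, then 20.6, 14 and 14.3 at day 210. In both genes day 210 replicate 1 lay within the day 30 range and replicates 2 and 3 lay below all other libraries. For PSME3, replicate 1 was also below all day 90 libraries, by a small margin. The log2 changes for day 210 over day 30 were -0.50 ± 0.18 for PSME2 and -0.32 ± 0.16 for PSME3 (SE, edgeR adjusted p = 0.139 and 0.255).

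PSME4, the large activator PA200, stayed within 106 to 130.3 normalised CPM in all 9 libraries. Its log2 changes of 0.00 for day 90 over day 30, -0.02 for day 210 over day 90 and -0.02 for day 210 over day 30, each ± 0.11 (SE), were within 1 standard error of 0.

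In the core rings the median log2 change for day 210 over day 30 was -0.39 over the 6 alpha subunits, and it was -0.29 over the 4 structural beta subunits and -0.32 over the 3 constitutive catalytic ones, against 0.00 over all loci tested. The order of these classes was not tested and changed with the libraries: the alpha and constitutive catalytic medians were -0.62 and -0.37 without day 210 replicate 1, -0.30 and -0.28 without replicate 2, and -0.27 and -0.32 without replicate 3. The structural beta median was -0.48, -0.19 and -0.17 in the same 3 fits. PSMA2 had the lowest unmerged alpha value with -0.44 ± 0.17 (SE, edgeR adjusted p = 0.161), and PSMA3 the only positive one in the family with 0.08 ± 0.15. PSMB4, a structural beta subunit, had 53.0, 56.5 and 41.4 normalised CPM at day 30, then 46.9, 44.4 and 48.3 at day 90, then 42.0, 35.0 and 37.3 at day 210, a log2 change of -0.40 ± 0.14 for day 210 over day 30 (SE, edgeR adjusted p = 0.115). Without day 30 replicate 3 that adjusted p was 0.0465, where 5.47% of all loci passed.

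In the regulatory particle the 5 ATPases had a median of -0.16 and the 11 non-ATPase subunits a median of -0.22 for day 210 over day 30, and all 16 values were below 0. Without day 210 replicate 1 these medians were -0.31 and -0.36, and the ATPase median was -0.06 without day 210 replicate 2. PSMD2, a large scaffold subunit with the highest normalised CPM among them, had 142, 128 and 111 at day 30, then 115, 119 and 113 at day 90, then 114, 84.8 and 106 at day 210. PSMD13, another non-ATPase subunit, lay at day 210 (28 to 33.6 normalised CPM) below both day 90 (34.3 to 35.7) and day 30 (34.2 to 37.1) without overlap (-0.25 ± 0.11 for day 210 over day 30, SE, edgeR adjusted p = 0.200). The gene name of a further locus without a description in the gene table is described as non-ATPase subunit 1 in the circRNA table. That locus, outside the rule, averaged 50.3 ± 9.7 normalised CPM at day 210 and 54.7 ± 0.6 at day 30 (SD, n = 3 each).

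The chaperones that build the core, PSMG1 to PSMG4, were expressed at 4.07 to 10.2 FPKM. PSMG2 had 6.45, 7.55 and 8.83 normalised CPM at day 30, then 11.4, 7.66 and 10.0 at day 90, then 8.63, 6.31 and 4.81 at day 210. Its log2 change was 0.35 ± 0.24 for day 90 over day 30, the highest of the family, and -0.56 ± 0.24 for day 210 over day 90 (SE, edgeR adjusted p = 0.431 and 0.343), with overlapping libraries in both. PSMG1, PSMG3 and PSMG4 changed by -0.14 ± 0.14, -0.01 ± 0.31 and -0.22 ± 0.20 for day 210 over day 30 (SE). POMP, the maturation protein that the rule does not take in, changed by -0.18 ± 0.18 for day 210 over day 30 (SE, edgeR adjusted p = 0.600). PSMD9, a chaperone of the ATPase ring, had a log2 change of -0.41 ± 0.19 for day 90 over day 30 (SE, edgeR adjusted p = 0.221).

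Proteasome loci whose libraries did not overlap between 2 ages were few and mostly lower at the later age. For day 210 over day 90 there were 7 below (PSMB4, PSMB8, PSMB9, PSMC4, PSMD13, PSME1 and PSME3), against 9.53% of all loci, and 1 above (PSMB7), against 9.91%. Against day 30, day 210 had 4 below (PSMB5, PSMB7, PSMD13 and PSME1), against 13.2% of all loci, and 0 above, against 12.4%. For day 90 over day 30 there were 3 below (PSMB5, PSMB7 and PSMD14), against 16.7%, and 0 above, against 16.9%. Only the lower share for day 210 over day 90, 7 in 43, is above its background of 9.53%. The higher share in that comparison, 1 in 43, is under its background of 9.91%. With both directions counted, that comparison is thus not above background. The other shares are at or under theirs. None of these shares was tested, and the 43 loci share the same libraries, so the 7 are not independent of one another.

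One library weighs on the day 210 values. The median deviation of the 43 loci from their own means was 0.10 in day 210 replicate 1, -0.34 in replicate 2 and -0.25 in replicate 3, on the log2 scale. At day 30 it was 0.19, 0.18 and -0.04, and at day 90 0.05, -0.01 and 0.04. The split was widest in the alpha ring, with 0.20 in day 210 replicate 1 and -0.38 and -0.49 in replicates 2 and 3. The medians of the 3 immunoproteasome subunits did not show it, with -0.16, -0.39 and -0.17 in the 3 day 210 libraries. Those of the core chaperones did not either, with -0.06, -0.24 and 0.03. PSMB8 and PSMB9 were each highest in replicate 1 among the day 210 libraries, and the merged PSMB10 locus was lowest there.

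Without day 210 replicate 1, edgeR called 6 of 43 loci for day 210 over day 30, all lower, against 5.29% of all loci. They were PSMA4, PSMA5, PSMB6, PSMC2, PSME2 and PSME3, with log2 changes of -0.81, -0.67, -0.60, -0.61, -0.74 and -0.52 and adjusted p between 0.0315 and 0.0486. In that fit the median over the 43 loci was -0.39 and 42 of 43 were below 0. It was -0.17 without day 210 replicate 2 and -0.22 without replicate 3. The split of replicate 1 from replicates 2 and 3 was noticed after the values were seen, and nothing in the labels sets replicate 1 apart. It had the most counted reads of the 9 libraries (62.1 M), and day 210 replicates 2 and 3 the fewest (50.0 and 48.9 M). A link with depth was not tested, and with 3 libraries it cannot be told which of them departs.

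**Figure D4:**
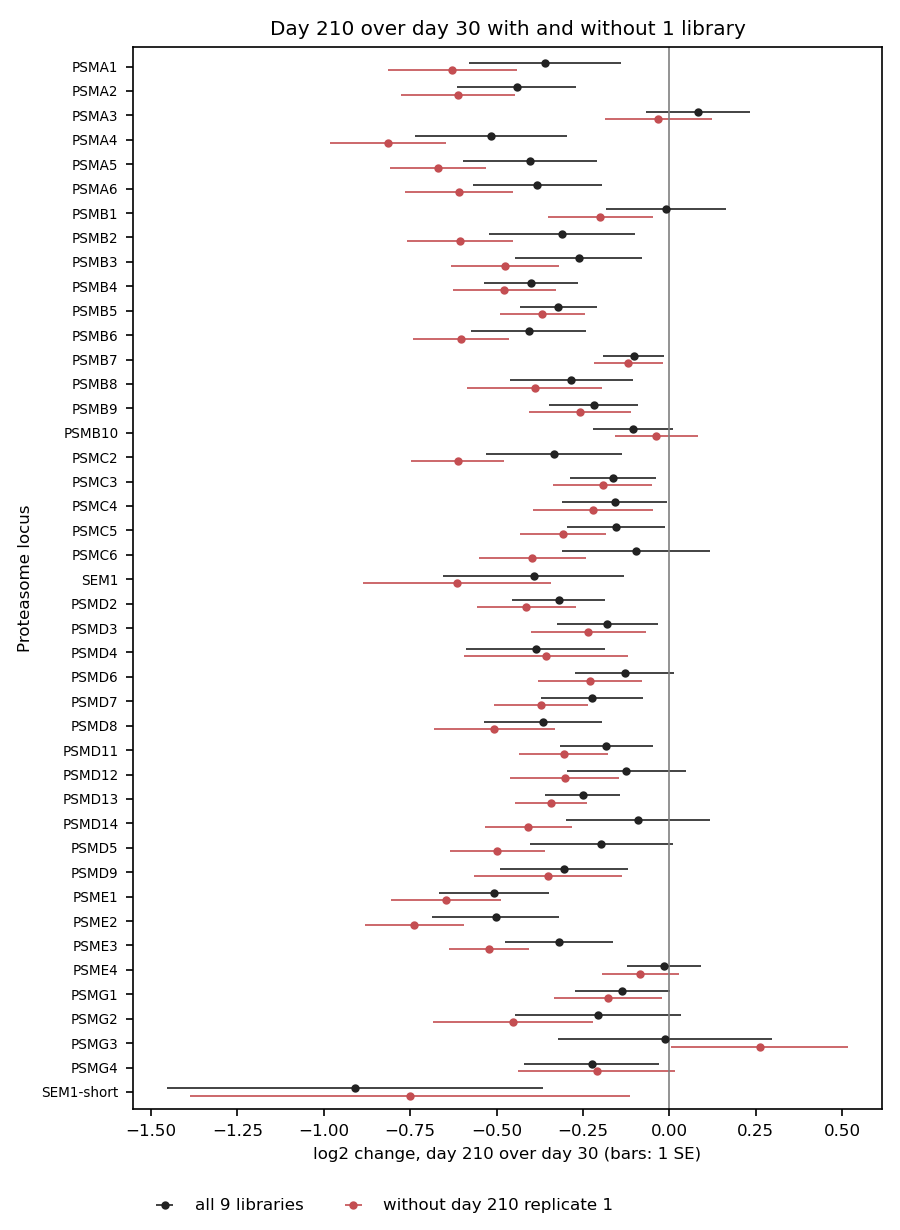
Log2 change of each tested proteasome locus for day 210 over day 30, with all 9 libraries (black) and without day 210 replicate 1 (red). Bars are 1 standard error of the edgeR fit; the median over the 43 loci is -0.25 with all libraries and -0.39 without that one.

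Summed marker levels of other cell types also differed between libraries and ages. The proliferation list (10 of 11 symbols matched to 11 loci, none at 0 in all libraries) summed to 530.5, 196 and 431 normalised CPM in day 210 replicates 1, 2 and 3, against 450.2 to 475 at day 90 and 480.2 to 582 at day 30. No locus of that list passed the test in any comparison. Erythroid markers (9 of 12 symbols matched, none at 0 in all libraries) summed to 326 to 922 normalised CPM at day 30, 76.3 to 110.1 at day 90 and 58.8 to 88.8 at day 210, and 9 of the 9 fell for day 210 over day 30, where 3.7% of all loci fell. That count was 5 without day 210 replicate 2, and 6 without day 210 replicate 3 or without day 30 replicate 1.

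In the same comparison 4 of 5 endothelial markers fell, with a summed level of 188 to 247 normalised CPM at day 210, against 348 to 399 at day 30. Of the 6 tested fibroblast and matrix loci 3 fell (333 to 547 normalised CPM at day 210, against 894 to 1171 at day 30), as did 3 of 5 tested spleen stroma loci (95.2 to 119 at day 210, against 151 to 210.4 at day 30) and 3 of 8 dendritic cell loci (85.2 to 97.1 at day 210, against 139 to 156 at day 30). Plasma cell markers went the other way, with 4 of 5 higher at day 210 (796 to 889 normalised CPM, against 307 to 391 at day 30), where 2.55% of all loci rose. Without day 210 replicate 2 or without day 30 replicate 2 the endothelial and plasma cell counts were each 2, and the plasma cell count was also 2 without day 30 replicate 1. The count was 1 for dendritic cells without day 210 replicate 2 and 1 for spleen stroma without day 30 replicate 2, and with some of the other libraries left out the counts of these lists were 2 or 3. Of the 9 tested red pulp macrophage loci 2 also rose for day 210 over day 30, with overlapping sums (3960 to 6180 normalised CPM at day 210, against 4288 to 5875 at day 30). Of the 9 T cell loci 1 rose. No red pulp macrophage locus was called without day 210 replicate 2, and no T cell locus without any 1 of the day 30 libraries. The part of these cells in the proteasome values was not tested.

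Proteasome partners and the ubiquitin system were covered by a list of 23 loci, 2 of which are the SEM1 loci of the family. For day 210 over day 30, 1 of the 23 fell and none rose, where 3.7% of all loci fell and 2.55% rose. The count of the list is thus close to its background. The locus that fell was PSMF1, the PI31 protein that inhibits the core in vitro. It had 32.2, 28.6 and 30.3 normalised CPM at day 210, against 70.6, 67.6 and 41.6 at day 30, a log2 change of -0.98 ± 0.22 (SE, edgeR adjusted p = 0.0328). The ages separated without overlap, while the call was lost in 5 of the 9 fits that leave out a library, with an adjusted p of up to 0.111 without day 30 replicate 2. The median of the list was -0.14 in this comparison.

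Circular RNAs were listed in a second table, most often as exon circles (circRNA, formed by back-splicing of an exon end to an upstream exon start) and otherwise as intron circles (ciRNA). Of its 18908 entries 53, of which 2 were ciRNAs, had a host locus in the proteasome family, from 16 loci, with 390 junction reads over the 9 libraries, and 25 of the 53 were seen in 1 library only. None came from the immunoproteasome or constitutive catalytic subunits. PSME4 hosted 15 of them with 163 junction reads and PSMC6, an ATPase of the regulatory particle, hosted 10 with 137.

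One circRNA, circRNA2834 of PSME4, was seen in all 9 libraries. It joins 4 exons at positions 41600843 to 41603402 of chromosome 3 on the minus strand, and had 8, 9 and 18 junction reads at day 30, then 16, 12 and 8 at day 90, then 9, 10 and 11 at day 210. The 3 ranges overlap, as the flat level of the PSME4 transcript does. Junction reads of the whole family came to 35.7, 33.7 and 34.3 in every 10000 junction reads at day 30, 25.5 to 41.4 at day 90 and 29.7 to 38.3 at day 210. The ranges of the 3 ages overlapped, and no test between ages was run on them.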

How the data were processed

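The authors deposited read counts and FPKM per assembled locus for the 9 libraries, and circRNA junction counts with an SRPBM signal that was not used here beyond its counts. Per the submitters' processing notes HISAT2 2.0, StringTie 1.3.0 and Bowtie 0.12.2 were used, with the build given as mm8. Neither the counting tool and its strand setting nor how circRNAs were called is given in the sources used here. The deposited FPKM carried a library scale that differed from TMM-scaled CPM by a factor of 0.82 to 1.12, with day 90 replicates 2 and 3 lowest, so FPKM was used for levels between genes and within-library ratios, and counts for tests.

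The 19264 loci averaging 1 FPKM or more entered an edgeR 4.0.16 (R 4.3.3) fit with TMM factors (0.937 to 1.073), a mean per age and the quasi-likelihood test, two-sided, with Benjamini-Hochberg adjustment over all loci. The common biological coefficient of variation was 27.3%. DESeq2 1.42.0 and limma 3.58.1 were alternatives, and the fit was tested on simulated data. Ratios were tested by exact permutation of ages. Genes named are the catalytic beta subunits, activators, core chaperones, the 5 highest by FPKM, the extremes of each comparison and loci called in any fit. PSMD2, PSMD13, PSMA2 and the loci without a description were added after their values were seen. The members and gene lists were chosen with earlier results of these data known. No replicate pair of an age had counts within sampling noise (the median chi-square per locus was at least 4.29). One result of the list of proteasome partners is not reported here.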

Additional observations from a re-analysis of the deposited data

How the results depend on the processing

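DESeq2 called 2424, 801, 2300 and 3324 loci for day 90 over day 30, day 210 over day 90, day 210 over day 30 and any age, where edgeR called 1171, 103, 1203 and 1471, and it called 0, 1, 1 and 1 proteasome loci. A filter at a mean of 5 FPKM gave 404, 58, 494 and 548. Without a filter 66 were called for day 210 over day 90. For day 210 over day 30 the count was 770 by limma on log2(FPKM + 0.1) and 499 from the 2 ages alone. With any library left out, the counts ran from 280 to 1556, 7 to 139, 342 to 1053 and 493 to 1671, and those of proteasome loci from 0 to 6 for day 210 over day 30 and 0 to 3 for any age. The other settings called no proteasome locus.

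Libraries with the same replicate number did not deviate together (correlations of -0.07 to 0.10 between ages, and 3 of 9 libraries closest to their own number), so the numbers pair nothing. A fit with the replicate number as a block called 582, 43, 531 and 651 loci and no proteasome locus. The exact permutation test of the PSMB8 to PSMB5 ratio over all 3 ages gave p = 0.111 when ages were permuted within that block. With a library left out, the exact p over all 3 ages ran from 0.0143 to 0.0571, while the difference for day 90 over day 30, 0.58 with all libraries, ran from 0.49 to 0.67, and the other ratios kept their side of the threshold.

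PSME4, near 0 in the reported fit, changed sign. For day 90 over day 30 its log2 change was -0.00037 by DESeq2, -0.042 without TMM factors, and -0.18 and -0.20 by limma on log2(FPKM + 1) and log2(FPKM + 0.1). Its day 210 over day 90 value was 0.028 without TMM factors, 0.027 with a mean of at least 5 FPKM, and 0.12 and 0.13 by limma. Its day 210 over day 30 value was 0.082 with a mean of at least 5 FPKM. PSMB10 was -0.011 without a filter for day 210 over day 90, and PSMG3 0.092 with a mean of at least 5 FPKM for day 210 over day 30. With a library left out PSME4 ran from -0.055 to 0.043, -0.089 to 0.053 and -0.085 to 0.056 in these 3 comparisons, PSMB10 from -0.066 to 0.070 for day 210 over day 90, PSMA3 from -0.032 to 0.23 and PSMG3 from -0.46 to 0.26 for day 210 over day 30, and the short SEM1 locus from -0.89 to 0.044 for day 90 over day 30. None of these had an adjusted p under 0.05, and the cause was not tested.

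The limma fits on FPKM shift all loci, with medians of -0.15 and -0.19 for day 90 over day 30 and 0.11 and 0.14 for day 210 over day 90. In them the proteasome medians were -0.29 and -0.31, then -0.03 and -0.04, each about as far below the median of all loci as in the reported fit. For day 210 over day 30 the proteasome median stayed below 0 under each setting, from -0.39 without day 210 replicate 1 to -0.15 with a mean of at least 5 FPKM. The 3 libraries an age and the standard errors of 0.09 to 0.55 limit how small a change can be called. PSMG3 and the short SEM1 locus, with the fewest reads, had the widest errors.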
